A study of Rattus norvegicus with 10 samples.

Results

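Genes that make, package, take up and break down the inhibitory transmitter GABA were followed in the hippocampus of rats 3 months after traumatic brain injury (TBI) or sham surgery. They are Gad1, Gad2, Slc32a1, Slc6a11 and Abat. They were chosen by symbol, as the rows of the count table whose RefSeq RNA record belongs to one of these names, and each name had 1 row, so no choice between isoforms was needed. The 5 rows stand among 32041 RNA records, of which those with a symbol cover 16610 genes. The genes were picked when it was already known that Gad1 and Gad2 had some of the smallest p-values of the whole comparison. The fits of Gad1 and Gad2 below are therefore a description of the rats and no independent test.

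Both groups were adult male Sprague-Dawley rats that weighed 330 to 371 g at the operation. The 5 TBI rats received lateral fluid percussion, a pressure pulse on the exposed dura, for which the labels give 3.32 atm. The 5 sham rats had the same anesthesia and craniectomy without the pulse. The methods of the study count fewer sham rats for this profiling than the labels, and all those labelled were used. RNA came from a piece of the left hippocampus that held CA3 and the dentate gyrus, a tissue that the labels also call dorsal hippocampus. The rats were survivors of a larger cohort and the TBI rats had no EEG monitoring, so it is not known which of them, if any, had seizures.

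GABA is formed from glutamate by glutamic acid decarboxylase, which has an enzyme of its own from each of the genes Gad1 (GAD67) and Gad2 (GAD65). GAD67 supplies most of the GABA of the cell body and axon, whereas GAD65 is found mostly at nerve endings, where it makes transmitter on demand. The vesicular transporter encoded by Slc32a1 (VGAT) loads GABA and glycine into synaptic vesicles, and plasma membrane transporters such as GAT-3 (Slc6a11) clear it from the extracellular space. Abat encodes GABA transaminase, the mitochondrial enzyme that starts GABA breakdown in neurons and glia. In the hippocampus Gad1, Gad2 and Slc32a1 mark interneurons, while Slc6a11 is mostly an astrocyte gene.

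The sequences just before the start of the genes for the synthesis enzymes are shown because these 2 genes carry the main difference. They were taken from RefSeq on assembly GRCr8, both on the plus strand, with capitals for a promoter motif found in each.
Gad1, chr3:75777202-75777259: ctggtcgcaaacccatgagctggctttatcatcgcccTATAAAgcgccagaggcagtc
Gad2, chr17:89671468-89671717: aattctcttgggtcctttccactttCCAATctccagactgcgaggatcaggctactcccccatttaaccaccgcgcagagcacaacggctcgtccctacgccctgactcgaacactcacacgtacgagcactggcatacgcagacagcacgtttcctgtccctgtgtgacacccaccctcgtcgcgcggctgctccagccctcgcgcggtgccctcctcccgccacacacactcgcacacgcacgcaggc
The Gad1 stretch is the 58 bases of the RefSeq window that lie before the annotated start of the gene, and its capitals mark TATAAA, which begins 21 bases before that start. The Gad2 stretch is 250 bases long, and its capitals mark CCAAT, which begins 225 bases before the start. Searched on both strands in windows of 300 bases, TATAAA was held by Gad1 and not by Gad2, Slc32a1 or Slc6a11, and it was held by 14.2% of 33469 RefSeq windows. CCAAT was held by Gad2 and Slc32a1 and by 37.5% of all windows. The GC box GGGCGG was held once by Gad1, once by Slc32a1 and 5 times by Slc6a11, against 33.1% of all windows with at least 1 match. TGACG, the core of a cyclic AMP response element, was found 2 times in Slc32a1 and in none of the other 3 windows, and 21.2% of all windows held it. The homeodomain letters TAATTA were in none of the 4 windows and in 5.36% of all windows. Thus Gad1 and Gad2 had no searched motif in common in these windows. The windows are not placed alike, since 58 bases of that of Gad1 lie before the annotated start, against 250 printed for Gad2.

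Counts on RNA records were 23425817 to 31671838 in a library. Ribosomal RNA took 59.0% of them in sham replicate 4 and 58.5% in sham replicate 5, against 12.5% to 26.2% in the other 8 rats, which left 12686398 to 24735107 counts outside ribosomal RNA. In those same sham rats 5 large rows with no gene name took 11.7% and 9.40% of the counts, against 2.30% to 5.00% elsewhere. Scaling therefore matters, and levels are given as CPM, counts scaled to a common library size of 1000000 that was adjusted by the trimmed mean of M values (TMM). With library size set instead to all counts, the median log2 change over all rows was 0.50 in place of -0.01, and the signs of the GABA genes turned with it. Changes are on the log2 scale as TBI over sham. Replicate numbers name rats and pair none of them. Without sham replicates 4 and 5 the log2 changes of Gad1 and Gad2, described below, were -0.50 and -0.48. Because tissue pieces were sequenced in bulk, fewer cells of a type and less RNA per cell cannot be told apart. Markers of dentate granule cells (124.8 to 277.3 summed CPM over all rats) and of CA3 pyramidal cells (483.7 to 753.3 summed CPM) were present in every library.

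Gad1 and Gad2 were lower in TBI than in sham rats by about the same amount, whereas Slc32a1, Slc6a11 and Abat differed by less than their spread between rats. The fitted log2 changes were -0.46 for Gad1, -0.46 for Gad2, -0.30 for Slc32a1, -0.13 for Slc6a11 and -0.03 for Abat, so that all 5 lay below 0, with a median of -0.30. Under scaling by all counts the changes were 0.03, 0.04, 0.26, 0.34 and 0.45 in the same order, all above 0. Taken from the median of all rows, the change of Gad1 lay between -0.47 and -0.45 and that of Gad2 between -0.46 and -0.44 over every scaling tried. The corresponding ranges were -0.30 to -0.24 for Slc32a1, -0.16 to -0.12 for Slc6a11 and -0.05 to -0.02 for Abat. A change of scaling moves all rows by nearly the same amount. The narrow ranges thus follow from subtracting the median and are no test of robustness. An unadjusted p under 0.05 was reached by 2 of the 5 genes, both lower in TBI, against 3.00% of all 22431 rows tested in that direction. Since the genes were picked with this comparison known, nothing is read from that count. No gene of the 5 passed the threshold of 0.05 after Benjamini-Hochberg adjustment in the quasi-likelihood test of edgeR, which called 0 of 22431 rows (0%). The count of these genes past the adjusted threshold was 2 in edgeR's exact test without robust estimation, which called 0.303% of all rows, 1 in DESeq2, which called 0.0134%, and 0 in edgeR's likelihood ratio test, its robust exact test and limma with voom.

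**Figure D1:**
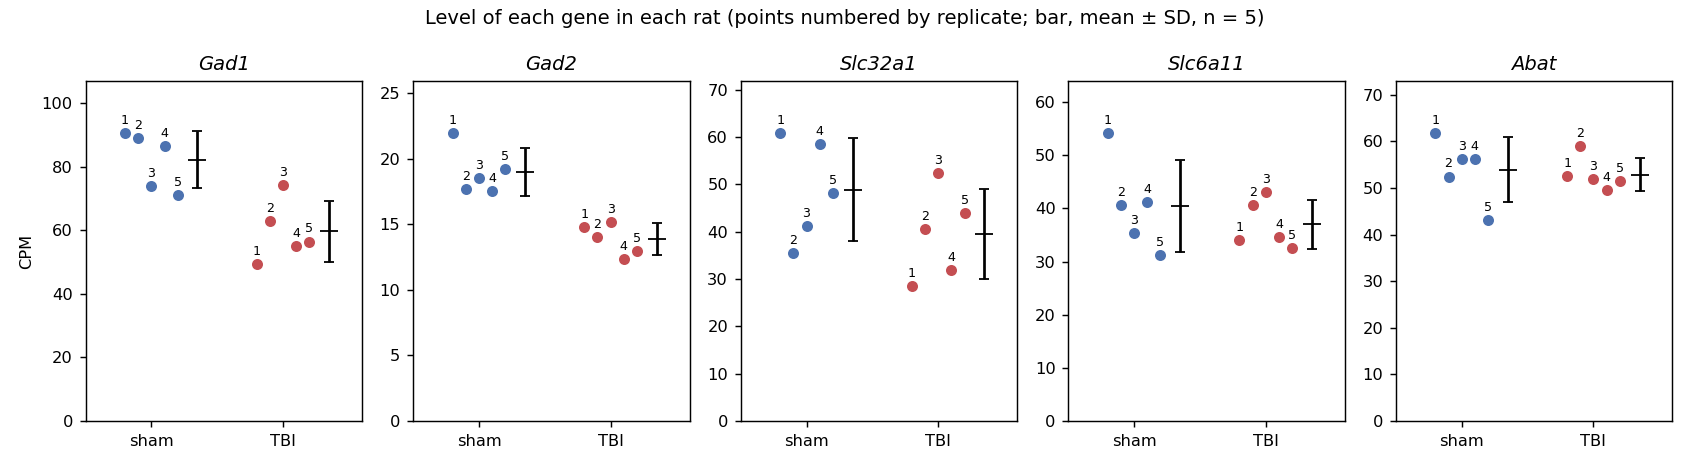
Level of Gad1, Gad2, Slc32a1, Slc6a11 and Abat in CPM (vertical axes, from 0) in the 5 sham and 5 TBI rats. Each point is 1 rat, numbered by replicate, and the bar gives the mean ± SD. The TBI points of Gad2 all lie below the sham points and 4 of the 5 TBI points of Gad1 do, under TMM scaling, while the groups overlap for the other genes.

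Gad2 separated the groups. Its level was 22.0, 17.7, 18.5, 17.5 and 19.2 CPM in sham replicates 1 to 5, and 14.8, 14.1, 15.2, 12.3 and 13.0 CPM in TBI replicates 1 to 5. The highest TBI rat, replicate 3, was below the lowest sham rat, replicate 4, and the groups did not overlap, as was so for 0.424% of all rows with TBI lower. The mean was 19.0 CPM ± 1.80 (SD, n = 5) in sham and 13.9 CPM ± 1.21 (SD, n = 5) after TBI. The fitted difference was -27.1%, with a 95% interval of the log2 change from -0.65 to -0.26 and a standard error of 0.0915. The unadjusted p in the edgeR fit was 9.02e-05, the smallest of all rows, and the adjusted p was 0.477. In reads, Gad2 is the least counted of the 5 genes, with 258 counts in sham replicate 4 and 704 in sham replicate 1 as the extremes. With each rat left out in turn, the log2 change of Gad2 stayed between -0.49 and -0.40.

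Gad1 showed nearly the same change with more spread. Its level was 90.7, 88.9, 73.9, 86.7 and 71.2 CPM in sham replicates 1 to 5, and 49.4, 62.9, 74.3, 55.1 and 56.5 CPM in TBI replicates 1 to 5. All TBI rats but replicate 3 were below the lowest sham rat, and that rat lay within the sham range. The mean was 82.3 CPM ± 9.06 (SD, n = 5) in sham and 59.6 CPM ± 9.49 (SD, n = 5) after TBI, and the fitted difference was -27.5%. The 95% interval of its log2 change was -0.68 to -0.25, with a standard error of 0.104. The unadjusted p in the edgeR fit was 0.000282, at rank 8 among all rows, and the adjusted p was 0.477. Without TBI replicate 3 the log2 change of Gad1 was -0.56 and its edgeR adjusted p was 0.0437, and this was the only rat whose removal brought 1 of the 5 genes past the adjusted threshold. In that fit 12 rows in all passed it, 0.0535% of those tested. Counts of Gad1 ran from 1139 in sham replicate 5 to 2905 in sham replicate 1.

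The balance between the enzymes did not differ between the groups beyond the spread. Gad2 had 0.199 to 0.270 counts for each Gad1 count in sham rats and 0.205 to 0.300 in TBI rats. The log2 ratio was -2.11 ± 0.196 (SD, n = 5) in sham and -2.09 ± 0.209 (SD, n = 5) after TBI, a difference of 0.0186 (two-sided exact permutation p = 0.865, adjusted over 4 ratios 0.865). The sign of this small difference turned when sham replicate 2, sham replicate 4 or TBI replicate 1 was left out, to -0.0359, -0.0295 and -0.0708. The smallest p that 5 against 5 rats allow is 0.00794. The ratio is taken within a library and does not depend on scaling, and the counts are per transcript record of unequal length, so it is not a ratio of molecules.

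Slc32a1, the vesicular GABA transporter, was lower on average with wide overlap. It was 60.9, 35.5, 41.2, 58.5 and 48.2 CPM in sham replicates 1 to 5, and 28.5, 40.6, 52.3, 32.0 and 43.9 CPM in TBI replicates 1 to 5. TBI replicates 1 and 4 lay below every sham rat, TBI replicate 3 was above 3 of the sham rats, and sham replicate 2 was below 3 of the TBI rats. The mean was 48.8 CPM ± 10.9 (SD, n = 5) in sham and 39.5 CPM ± 9.52 (SD, n = 5) after TBI. The log2 change was -0.30 with a 95% interval from -0.72 to 0.11 (edgeR unadjusted p = 0.137, adjusted p = 0.746). This interval holds both no change and the change seen for the synthesis genes. Without sham replicate 2 the log2 change was -0.40 (edgeR unadjusted p = 0.0435), and without TBI replicate 3 it was -0.43 (edgeR unadjusted p = 0.0300). Without sham replicate 1 or TBI replicate 1 it was instead -0.21 (edgeR unadjusted p = 0.296 and 0.272). For each Gad1 count there were 0.399 to 0.677 counts of Slc32a1 in sham and 0.577 to 0.777 in TBI rats, a difference in log2 ratio of 0.159 (two-sided exact permutation p = 0.437, adjusted over 4 ratios 0.582).

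Slc6a11 (GAT-3), through which astrocytes take up GABA, differed little between the groups. Its level was 54.2, 40.6, 35.4, 41.1 and 31.3 CPM in sham replicates 1 to 5, and 34.0, 40.7, 43.1, 34.6 and 32.6 CPM in TBI replicates 1 to 5. Sham replicate 1 was the highest rat and sham replicate 5 the lowest, so the TBI rats lay inside the sham range. The mean was 40.5 CPM ± 8.66 (SD, n = 5) against 37.0 CPM ± 4.61 (SD, n = 5) in TBI. The log2 change was -0.13 with a 95% interval from -0.40 to 0.13 (edgeR unadjusted p = 0.298, adjusted p = 0.838), and without sham replicate 1 it was -0.00780.

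Abat, which encodes the enzyme of GABA breakdown, had the smallest change of the 5 genes. It was 61.8, 52.5, 56.2, 56.2 and 43.1 CPM in sham replicates 1 to 5, and 52.5, 58.9, 51.8, 49.6 and 51.6 CPM in TBI replicates 1 to 5. All TBI rats lay within the sham range, whose ends were again sham replicates 1 and 5. The mean was 54.0 CPM ± 6.95 (SD, n = 5) in sham and 52.9 CPM ± 3.56 (SD, n = 5) after TBI. The 95% interval of the log2 change, -0.22 to 0.16, does not hold the fitted change of Gad1 or Gad2 (edgeR unadjusted p = 0.735, adjusted p = 0.962). Without sham replicate 1 the change was 0.0203.

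Set against Gad1, counts of Abat were higher in 4 of 5 TBI rats than in any sham rat, but the difference did not pass adjustment. For each Gad1 count there were 0.590 to 0.761 Abat counts in sham rats and 0.698 to 1.06 in TBI rats, and TBI replicate 3 was the only TBI rat inside the sham range. The log2 ratio was -0.612 ± 0.147 (SD, n = 5) in sham and -0.162 ± 0.221 (SD, n = 5) after TBI, a difference of 0.450 (two-sided exact permutation p = 0.0159). Adjusted over the 4 ratios the permutation p was 0.0635, and without TBI replicate 3 it was 0.0317. The lower Gad1 was known when the ratio was chosen, so this too is a description. The ratio of Slc6a11 to Abat, 0.629 to 0.877 in sham and 0.632 to 0.831 in TBI rats, differed by -0.0940 on the log2 scale (two-sided exact permutation p = 0.389, adjusted over 4 ratios 0.582).

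To see whether the lower GAD counts moved with neuron counts in general, each gene was also expressed per 10000 counts of 10 pan-neuronal genes (Snap25, Syt1, Rbfox3 and others) of the same library, a measure that needs no scaling. Gad2 was 55.0, 53.5, 55.2, 51.0 and 56.4 in sham replicates 1 to 5 and 48.5, 46.8, 44.4, 33.4 and 36.6 in TBI replicates 1 to 5. The groups did not overlap on this measure either, at 54.2 ± 2.09 (SD, n = 5) and 41.9 ± 6.61 (SD, n = 5). How many of all rows separate on this measure was not counted. It uses the same Gad2 counts as the fit, so it too is a description. Gad1 was 235 ± 24.6 (SD, n = 5) in sham and 179 ± 31.4 (SD, n = 5) after TBI, and TBI replicates 2 and 3 reached the sham range. Slc32a1 was 139 ± 24.5 against 118 ± 28.1, Slc6a11 115 ± 16.9 against 112 ± 19.2 and Abat 154 ± 16.4 against 160 ± 24.5 (SD, n = 5 in each group), all with overlap. The pan-neuronal genes themselves summed to 3306 to 3998 CPM in sham and 3003 to 3694 CPM in TBI rats. None of the 10 had an unadjusted p under 0.05, and their median log2 change was -0.07.

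**Figure D2:**
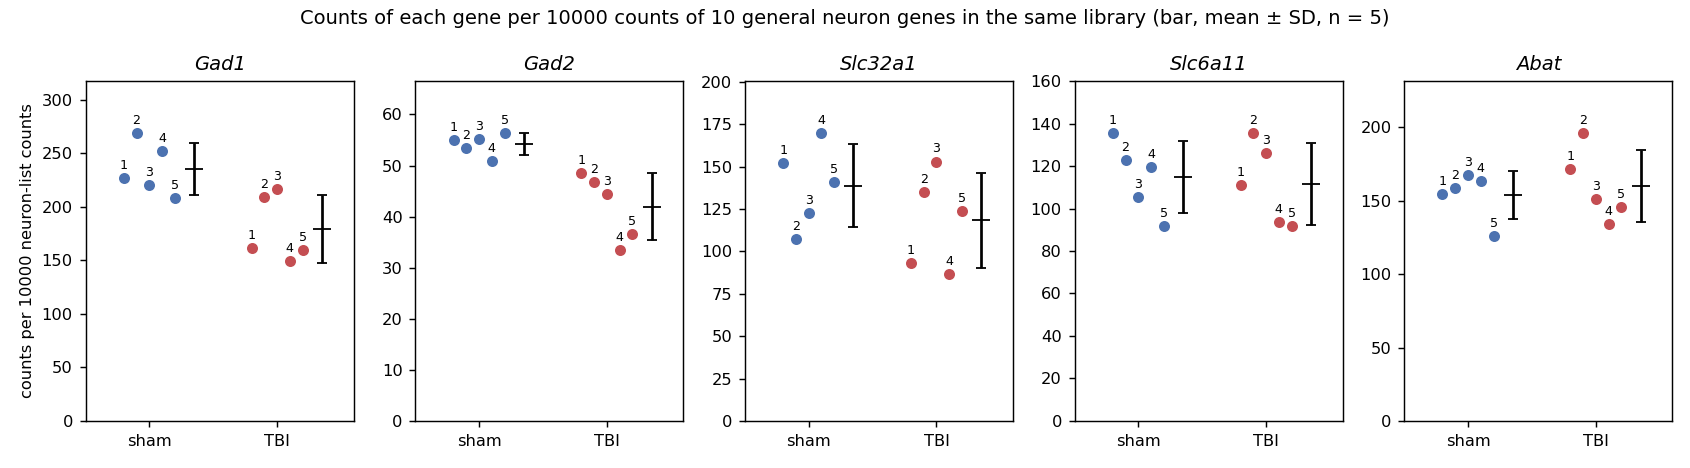
Counts of each gene per 10000 counts of 10 general neuron genes in the same library (vertical axes, from 0), by rat, with the mean ± SD of 5 rats. Gad2 lies between 50.95 and 56.39 in sham and between 33.39 and 48.51 in TBI rats, a separation that does not depend on how libraries are scaled, and the groups overlap for the other genes. The share of all rows that separate on this measure was not counted.

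Per 10000 counts of 21 interneuron subtype markers Gad2 was lower in TBI but overlapped between the groups. TBI replicate 1, at 354, was above sham replicates 1 and 4, at 349 and 345. The other TBI rats were below every sham rat. Gad2 was 376 ± 26.6 (SD, n = 5) in sham and 307 ± 34.2 (SD, n = 5) after TBI, and Gad1 was 1634 ± 209 against 1311 ± 164 (SD, n = 5 in each group). Against 10 astrocyte genes the difference was wider, with Gad2 at 83.1 ± 15.7 (SD, n = 5) in sham and 44.9 ± 12.1 (SD, n = 5) after TBI, although TBI replicate 3, at 66.2, was above sham replicate 3, at 61.9, so that the groups overlapped here too. The astrocyte genes summed to 2102 to 2993 CPM in sham and 2295 to 3873 CPM in TBI rats. Of the astrocyte genes 2 of 10 were higher at an unadjusted p under 0.05, against 4.89% of all rows. One of them was Gfap, the intermediate filament of astrocytes, with a log2 change of 0.82 (edgeR unadjusted p = 0.0123). Its mean was 1016 CPM in sham and 1801 CPM in TBI rats, so Gfap weighed most in the astrocyte counts. Of the 10 genes 7 were fitted higher and 3 lower, with a median log2 change of 0.15. How wide the difference is without Gfap was not computed. The part of the astrocyte genes in the lower GAD levels was not tested.

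The levels were also compared from rat to rat. Over the 10 rats log2 CPM of Gad1 and Gad2 gave Pearson r = 0.788 (permutation p = 0.00900, adjusted over 10 pairs 0.0814) and Spearman rho = 0.733 (permutation p = 0.0206, adjusted 0.0883). Without the rats farthest from the median of Gad1, TBI replicates 1 and 4, r was 0.790. Centred in each group it was 0.269, so the relation of the pair lay mostly in the difference between the groups. Gad1 and Slc6a11 gave r = 0.669 (permutation p = 0.0325, adjusted 0.0814) and rho = 0.709 (permutation p = 0.0276, adjusted 0.0883), with r = 0.642 without TBI replicates 1 and 4, and 0.806 when centred in each group. Gad1 and Slc32a1 gave r = 0.696 (permutation p = 0.0284, adjusted 0.0814) and rho = 0.685 (permutation p = 0.0353, adjusted 0.0883). For this pair r was 0.346 without TBI replicates 1 and 4, and 0.625 when centred in each group. Slc6a11 and Abat gave r = 0.741 (permutation p = 0.0169, adjusted 0.0814) and rho = 0.709 (permutation p = 0.0267, adjusted 0.0883). Here r was 0.386 without sham replicates 1 and 5, and 0.748 when centred in each group. The other 6 pairs had r from 0.204 to 0.563, and none of the 10 pairs passed an adjusted p of 0.05. Without sham replicate 2 the pair of Gad1 and Slc32a1 did, with r = 0.913 (permutation p adjusted over 10 pairs 0.00887).

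**Figure D3:**
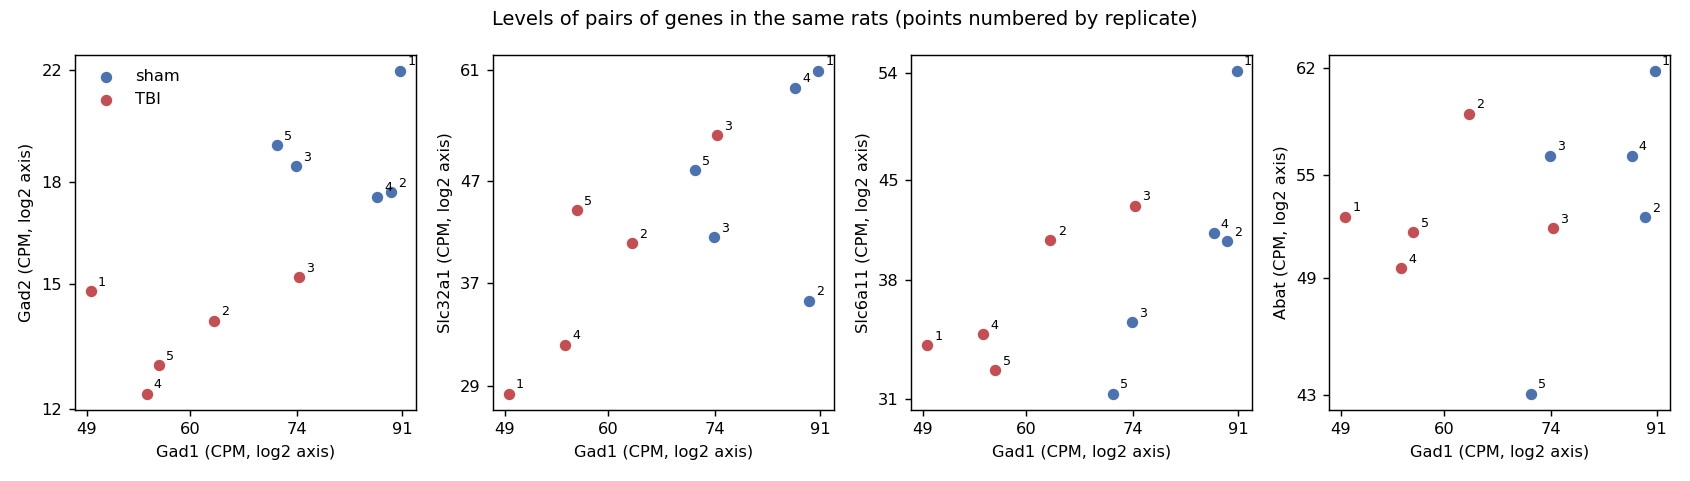
CPM of Gad2, Slc32a1, Slc6a11 and Abat (vertical axes) against Gad1 (horizontal axes), all on log2 axes, with 1 numbered point for each of the 10 rats. Gad1 and Gad2 form a sham cloud and a TBI cloud with r = 0.269 once each group is centred. On that measure r to Gad1 is 0.625 for Slc32a1, 0.806 for Slc6a11 and 0.440 for Abat.

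Other genes of the pathway were taken from lists covering GABA transporters, GABA breakdown, glutamate supply, the GAD cofactor, GAD trafficking, interneuron transcription factors and the inhibitory synapse. Of 44 genes 42 were tested, and 2 had an unadjusted p under 0.05, 1 higher and 1 lower, against 7.89% of all rows in either direction and 4.89% with TBI higher. None passed the adjusted threshold in edgeR's quasi-likelihood test or any other test run. The median log2 change of the 42 was -0.01. The count rested on single rats. It was 1 without sham replicate 1 or TBI replicate 1, where 8.37% and 7.62% of all rows had such a p. It was 4 without sham replicate 4, and 5 without sham replicate 3 or 5, where 6.29%, 11.4% and 7.13% of all rows did.

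Of the other plasma membrane GABA transporters, Slc6a13 (GAT-2), a transporter of the meninges and vessels more than of neurons, was 1.19 CPM ± 0.327 (SD, n = 5) in sham and 1.81 CPM ± 0.231 (SD, n = 5) after TBI, a log2 change of 0.56 (edgeR unadjusted p = 0.00835). With the ribosomal RNA share as a covariate the change of Slc6a13 was 0.32 (edgeR unadjusted p = 0.173). Slc6a12, the betaine transporter, was near the limit of counting at 0.133 CPM in sham and 0.168 CPM in TBI rats.

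Genes that feed or follow the GAD step showed smaller differences. Maob, a monoamine oxidase on the side route from putrescine to GABA, had a log2 change of 0.17 (edgeR unadjusted p = 0.133), and none of the 6 tested genes of breakdown and side routes had an unadjusted p under 0.05. Slc1a1 (EAAT3), through which neurons take up glutamate, was 46.2 CPM ± 0.639 (SD, n = 5) in sham and 42.4 CPM ± 2.25 (SD, n = 5) after TBI. The groups did not overlap for Slc1a1, as was so for 0.424% of all rows with TBI lower. Yet its log2 change was only -0.13 (edgeR unadjusted p = 0.0820), and none of the 12 genes of glutamate and glutamine supply had an unadjusted p under 0.05. Alpl, the phosphatase that lets vitamin B6 into cells for the GAD cofactor, had a log2 change of -0.31 (edgeR unadjusted p = 0.0572). Zdhhc17, a palmitoyl transferase that acts on GAD65, had one of -0.13 (edgeR unadjusted p = 0.162).

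Among the transcription factors of interneurons Lhx6, needed for interneurons born in the medial ganglionic eminence, was 9.11 CPM ± 1.75 (SD, n = 5) in sham and 7.09 CPM ± 1.35 (SD, n = 5) after TBI. Its log2 change was -0.36 (edgeR unadjusted p = 0.0242), the only one of 8 tested factors under 0.05, and 0.18 under scaling by all counts. Leaving out sham replicate 1, TBI replicate 1 or TBI replicate 4 gave Lhx6 an edgeR unadjusted p of 0.0941, 0.0686 and 0.0576. On the receiving side Slitrk3, an adhesion protein of inhibitory synapses, had a log2 change of -0.16 (edgeR unadjusted p = 0.0534). None of the 7 genes of GABA-B receptors and the inhibitory postsynapse had an unadjusted p under 0.05.

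**Figure D4:**
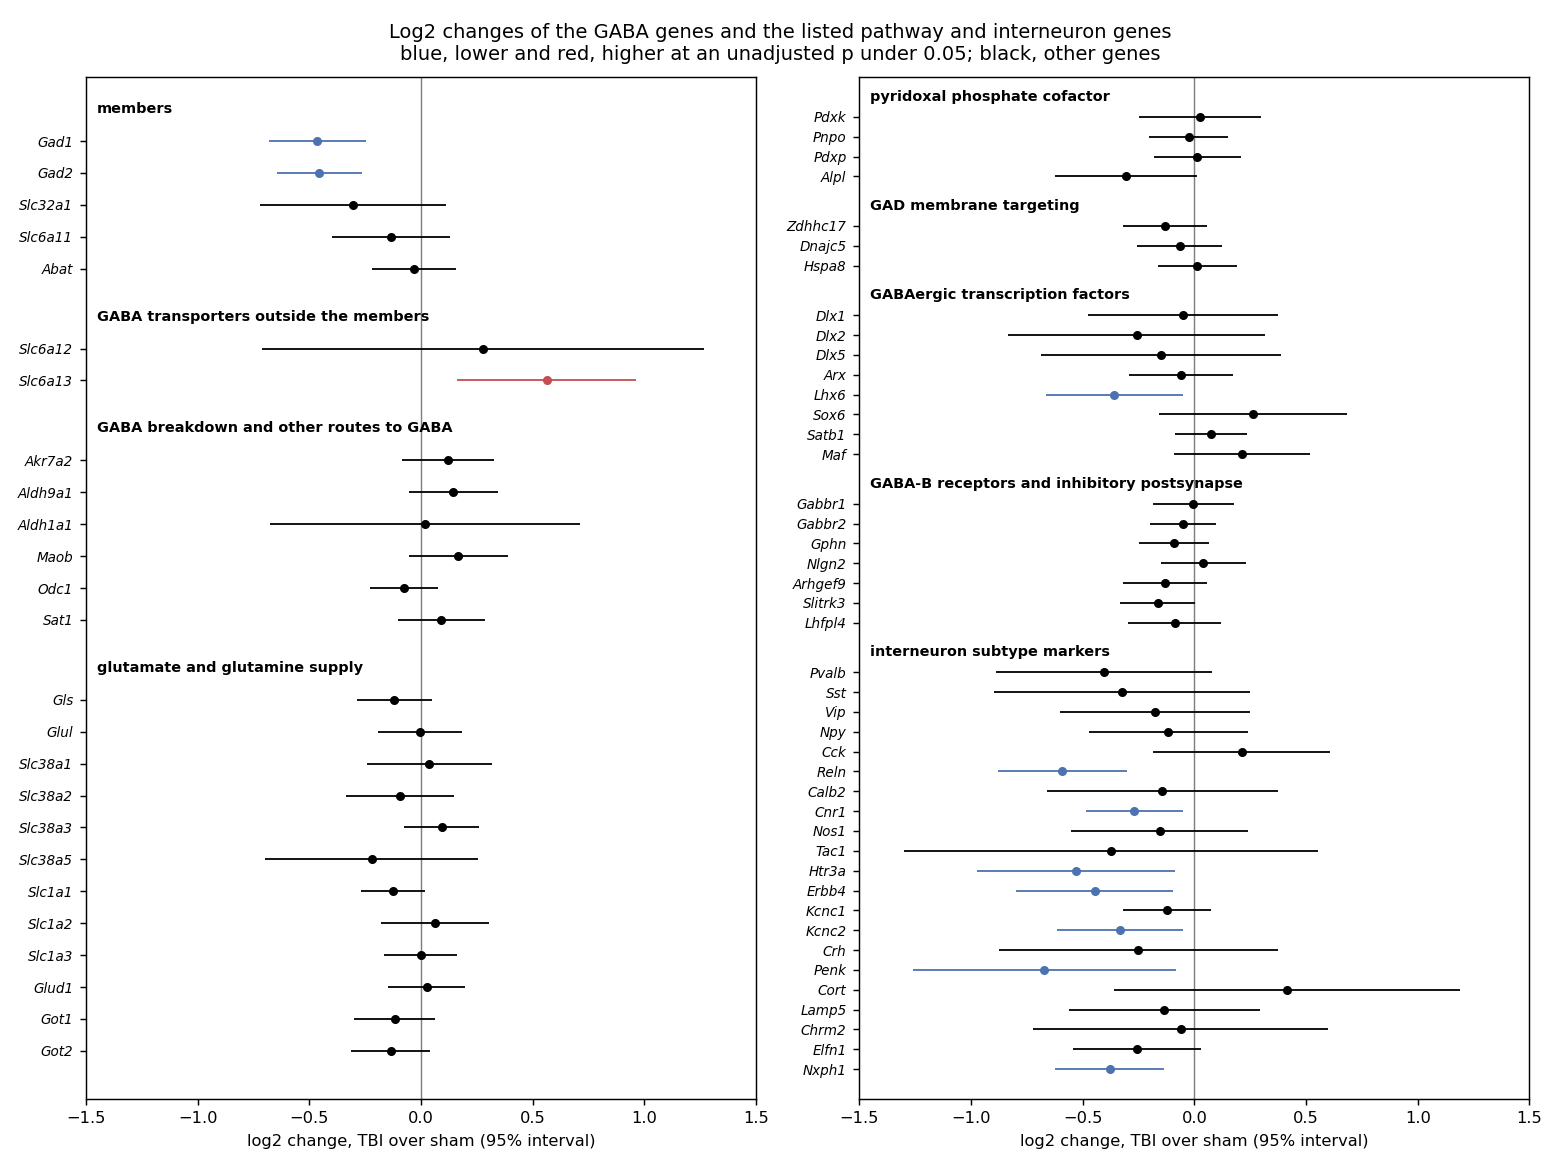
Log2 change of TBI over sham under TMM scaling (horizontal axes, point and 95% interval) for the 5 GABA genes, headed members, and for the listed pathway genes and interneuron markers. Blue marks lower and red higher at an unadjusted p under 0.05; under scaling by all counts the median of all rows moves from -0.01 to 0.50 and the signs of Gad1 and Gad2 turn.

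Most markers of interneuron subtypes lay on the same side as the GAD genes under TMM scaling. Of 21 tested markers 19 were fitted lower in TBI, as were 11705 of all 22431 rows and 8 of the 10 general neuron genes. An unadjusted p under 0.05 was reached by 7 markers, all lower, against 3.00% of all rows. In that quasi-likelihood test 0 passed the adjusted threshold. With edgeR's exact test without robust estimation 1 passed, against 0.303% of all rows, and with DESeq2 or limma with voom 0 passed. The median log2 change of the 21 was -0.26, and it was -0.01 over all rows. The 7 were Reln, Nxph1, Erbb4, Cnr1, Htr3a, Kcnc2 and Penk. The list was drawn up with earlier results of these rats known, and the count was 4 with the ribosomal RNA share as a covariate and 4 without sham replicates 4 and 5, against 4.42% and 5.60% of all rows in either direction. Under scaling by all counts 2 markers had an unadjusted p under 0.05, none of them of the 7, against 16.9% of all rows in either direction. Under scaling by all counts outside ribosomal RNA 2 markers did, of which only Reln was of the 7, against 12.9% of all rows.

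Reln, the secreted reelin of hippocampal interneurons, was 28.2 CPM ± 2.93 (SD, n = 5) in sham and 18.7 CPM ± 4.50 (SD, n = 5) after TBI. The groups did not overlap for Reln, as was so for 0.424% of all rows with TBI lower. Its log2 change was -0.59 (edgeR unadjusted p = 0.000543). Nxph1, a secreted neurexin ligand, had a log2 change of -0.38 (edgeR unadjusted p = 0.00439). The ErbB4 receptor gene of parvalbumin and other interneurons, Erbb4, had one of -0.45 (edgeR unadjusted p = 0.0156). Cnr1, the cannabinoid receptor of cholecystokinin interneurons, had -0.27 (edgeR unadjusted p = 0.0178), and Htr3a, a serotonin receptor subunit of interneurons from the caudal ganglionic eminence, had -0.53 (edgeR unadjusted p = 0.0215). Kcnc2, a channel subunit of fast-spiking cells, had -0.33 (edgeR unadjusted p = 0.0229), and Penk, the enkephalin precursor, had -0.67 (edgeR unadjusted p = 0.0290). The markers most used to name subtypes did not reach an unadjusted p of 0.05: Pvalb had a log2 change of -0.40 (edgeR unadjusted p = 0.0919) and Sst one of -0.32 (edgeR unadjusted p = 0.235). Vip and Npy had log2 changes of -0.18 and -0.12 (edgeR unadjusted p = 0.399 and 0.493). The 2 markers fitted higher were Cck, at 0.21, and Cort, at 0.41 (edgeR unadjusted p = 0.265 and 0.269). Reln and Nxph1 kept an unadjusted p under 0.05 with any rat left out, whereas Cnr1, Htr3a and Kcnc2 lost it without sham replicate 1 (edgeR unadjusted p = 0.0682, 0.135 and 0.0718) and Erbb4 and Penk without sham replicate 4 (edgeR unadjusted p = 0.0512 and 0.0584). Single TBI rats or sham replicate 2 also decided that threshold for Htr3a, Kcnc2 and Penk, with edgeR unadjusted p-values up to 0.0746. Under scaling by all counts the changes of Nxph1, Erbb4, Cnr1 and Kcnc2 were above 0.

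The genes whose pattern over the 10 rats was most like that of the GAD genes were found by Pearson correlation with the mean of centred log2 CPM of Gad1 and Gad2, over 10714 genes of at least 1 CPM. The 8 highest were Reln (r = 0.918), Syt2 (0.913), Nxph1 (0.912), Numb (0.909), Pigl (0.901), Dync1li1 (0.898), Rundc3b (0.895) and Piwil2 (0.885). All 8 had lower means in TBI, as genes chosen on a profile with that difference do. Centred in each group, r was 0.765 for Reln, 0.807 for Syt2, 0.851 for Nxph1 and 0.794 for Numb, and 0.519 for Pigl, 0.668 for Dync1li1, 0.549 for Rundc3b and 0.459 for Piwil2. Syt2, a calcium sensor of fast transmitter release, was 4.84 CPM ± 1.23 (SD, n = 5) in sham and 3.15 CPM ± 0.487 (SD, n = 5) after TBI. These values share their libraries and depth and are given as a description. Among the other GABA genes the same measure was 0.671 for Slc32a1, 0.609 for Slc6a11 and 0.283 for Abat.

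Markers of other regions and cell types did not have the same level in all pieces. Whether the pieces differed in the tissue they held was not tested. Thalamic and hypothalamic markers summed to 17.1 to 28.7 CPM in sham and 25.6 to 31.3 CPM in TBI rats, with 5 of 8 tested markers higher at an unadjusted p under 0.05, and choroid plexus and ependyma markers summed to 31.5 to 59.3 CPM in sham and 48.0 to 68.8 CPM in TBI rats, with 2 of 8 higher. CA1 pyramidal markers ran from 75.3 to 163.8 summed CPM in sham and from 57.2 to 536.3 in TBI rats, with 3 of 6 higher. Microglial genes summed to 199.95 to 318.7 CPM in sham and 243.2 to 340.9 CPM in TBI rats, with 4 of 10 higher. Dentate granule, CA3, oligodendrocyte and endothelial markers had 0 genes under that threshold. Striatal markers summed to 66.1 to 102.3 CPM in sham and 99.2 to 111.2 CPM in TBI rats, with 1 higher and 1 lower of 6. Of all rows 4.89% were higher and 3.00% lower at that threshold. The marker counts are those under TMM scaling, and under scaling by all counts 16.8% of all rows were higher. The part of these markers in the lower Gad1 and Gad2 levels was not tested. With the ribosomal RNA share of each library as a covariate, Gad1 and Gad2 had log2 changes of -0.54 and -0.48 and kept an unadjusted p under 0.05.

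**Figure D5:**
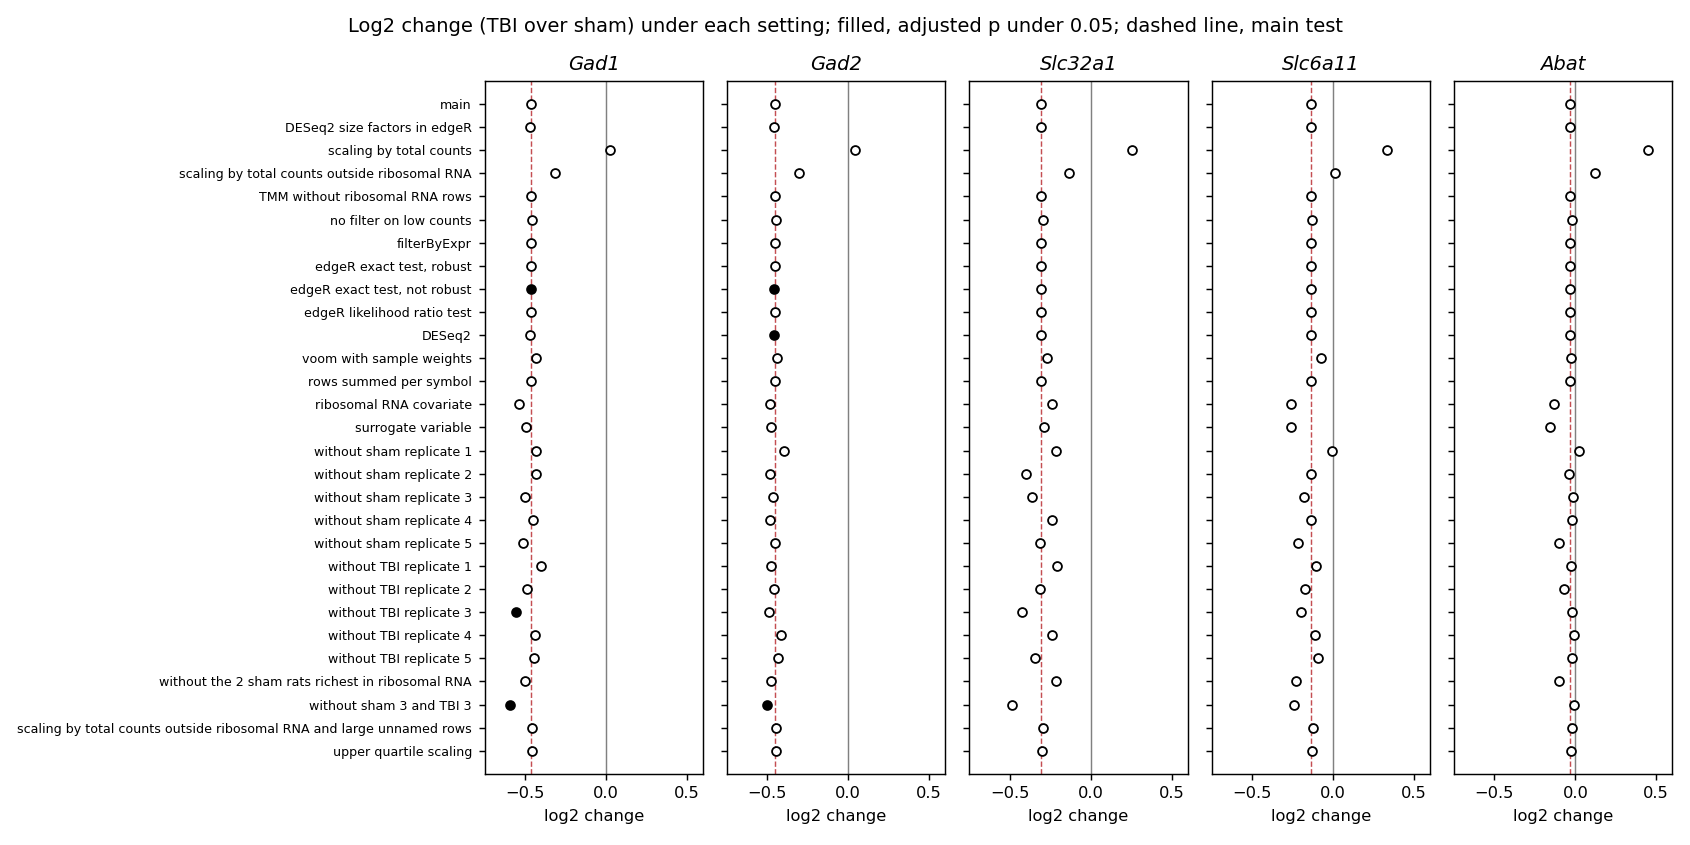
Log2 change of TBI over sham (horizontal axes) for each of the 5 genes under each way of processing the counts, with filled points where the adjusted p was under 0.05 and a dashed line at the reported value. Gad1 and Gad2 stay between -0.59 and -0.30 in all but scaling by all counts, where they are 0.03 and 0.04.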

How the data were processed

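Poly-A selected RNA of 10 rats was sequenced as single reads of 36 bases. The authors deposited raw read counts for each RefSeq RNA record, without normalization or pooling; the labels name BWA and build rn4, while the methods of the study name Ensembl transcripts, and this was not settled here. For this profiling the methods count 3 control rats and the labels 5, all used here. The table held 32043 rows, of which 2 (an empty entry and unmapped reads, the latter 12.8% to 26.1% of reads) were left out. A RefSeq table of assembly GRCr8 gave a symbol to 54.2% of records, used for names only.

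Rows whose counts summed to 44 or more, the 30th percentile, were tested with edgeR 4.0.16 (quasi-likelihood F test, robust, TMM) in R 4.3.3, with Benjamini-Hochberg adjustment over 22431 rows. Use of strand in counting is not stated, and overlapping transcripts are uncertain. Ratios were compared by two-sided exact permutation over 252 splits, and correlations by 100000 resamples. DESeq2 1.42.0, limma 3.58.1 with voom, sva 3.50.0, other scalings and filters, and leaving out rats were alternatives. The scalings that leave out large unnamed rows or use the upper quartile were chosen after seeing the data. Members and gene lists were chosen with earlier results of these data known. Named genes were the 5 members, list genes with an unadjusted p under 0.05 or the smallest p of their list, and 8 genes of like pattern. Gfap, Pvalb, Sst, Vip, Npy, Cck, Cort and Slc6a12 were added after their values were seen. A gene of the pathway lists is not reported here and was left out of their counts. By the labels each sample is a rat of its own. Scripts were tested on simulated data. Figures were drawn with matplotlib 3.10.9.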

Additional observations from a re-analysis of the deposited data

Results flagged for a closer look

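In 1 group a single rat stood apart from the others. Erbb4 was 4.96 CPM in TBI replicate 1 and 2.70 to 3.19 CPM in the other TBI rats, a gap of 0.781 of the group's range against a critical value of 0.71. Of 58 groups of 5 rats checked this was the only one, and chance flags about 2.9 in that number.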

How the results depend on the processing

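Gad1 and Gad2 kept an unadjusted p under 0.05 and a lower level in every alternative except scaling by all counts. That scaling gave log2 changes of 0.0258 for Gad1, 0.0402 for Gad2, 0.26 for Slc32a1, 0.34 for Slc6a11, 0.45 for Abat, 0.18 for Lhx6, 0.19 for Cnr1, 0.0815 for Erbb4, 0.16 for Kcnc2 and 0.13 for Nxph1, with 0 members, 5 pathway genes and 2 interneuron markers at an unadjusted p under 0.05, against 16.9% of all rows, nearly all higher (16.8%), r = 0.929 for Gad1 and Gad2, and 10 of 10 pairs past the adjusted threshold, while the median of all rows was 0.50. Scaling by counts outside ribosomal RNA, with a median of 0.14, gave 0.0134 for Slc6a11 and 0.12 for Abat, 6 pathway genes and 2 interneuron markers, against 12.9% of all rows; with the 5 large unnamed rows also left out, the median was -0.00154 and Gad1 and Gad2 were -0.46 and -0.45. The exact test without robust estimation gave -0.46 for Gad1 (adjusted p = 0.0284) and -0.46 for Gad2 (adjusted p = 0.0157), with 2 members and 1 interneuron marker adjusted of 68 rows in all, and DESeq2 gave -0.46 for Gad2 (adjusted p = 0.0400), with 1 member of 3 rows in all. Without sham replicate 3 and TBI replicate 3, rats set aside for their values of other genes, Gad1 was -0.59 (adjusted p = 0.00647) and Gad2 -0.50 (adjusted p = 0.0259), with 2 members and 3 interneuron markers adjusted, against 1.42% of all rows, and 5 pathway genes unadjusted, against 11.6%. Per 10000 astrocyte counts Gad1 was lowest of the sham rats in sham replicate 3, at 247. It was highest of the TBI rats in TBI replicate 3, at 324. Leaving out rats nearest the other group widens the difference, so this setting is no support. Limma with voom gave 1 pathway gene under 0.05, against 8.38% of all rows. Interneuron markers under 0.05 numbered 4 with ribosomal RNA as a covariate, and 4 when sham replicates 4 and 5 were left out. Of all rows 4.42% and 5.6% did so in these fits. The cause of these differences was not tested.

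With 1 rat left out, the log2 change was -0.56 to -0.40 for Gad1, -0.49 to -0.40 for Gad2, -0.43 to -0.21 for Slc32a1, -0.22 to -0.0078 for Slc6a11 and -0.10 to 0.0203 for Abat. The log2 ratio differed by -0.0708 to 0.0751 for Gad2 to Gad1, with -0.0359 without sham replicate 2 and -0.0295 without sham replicate 4, and by 0.39 to 0.54 for Abat to Gad1. Counts were 0 to 1 for members adjusted and 0 to 1 for interneuron markers adjusted, against 0% to 0.0535% of all rows. They were 1 to 5 for pathway genes unadjusted, against 5.17% to 11.4% of all rows. For pairs they were 0 to 1, the 1 without sham replicate 2. Gad2 and Abat gave r = -0.15 without sham replicate 1 to 0.70 without sham replicate 5, and Gad1 and Gad2 0.73 to 0.85. No paired analysis was possible because the labels number the rats 1 to 10 across the groups, share no number between them and name no litter or day. Depth outside ribosomal RNA was lowest in sham replicates 4 and 5.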
